A study of Rattus norvegicus with 12 samples.

Results

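The genes described here are 10 genes of the endoplasmic reticulum (ER) folding machinery and the unfolded protein response: the chaperones Hspa5, Hsp90b1 and Calr, the disulfide isomerases Pdia3, Pdia4, Pdia6 and P4hb, the oxidase Ero1a, the degradation factor Herpud1 and the transcription factor Xbp1. They were chosen by name, and all 10 of the 32883 genes in the deposited tables were found and passed the filter on low counts, which left 13230 genes to test.

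Secreted and membrane proteins fold in the ER, where chaperones hold unfinished chains and disulfide isomerases form and reshuffle their cysteine bonds. When unfolded proteins build up there, the sensors IRE1 (Ern1), PERK (Eif2ak3) and ATF6 (Atf6) start the unfolded protein response. IRE1 splices Xbp1 RNA into the form that encodes an active transcription factor, ATF6 is cut in the Golgi into another, and PERK slows protein synthesis while favouring translation of Atf4, whose targets include Ddit3, the gene of CHOP. XBP1 and ATF6 raise chaperones and degradation factors, and ATF4 and CHOP raise genes of amino acid supply, redox balance and cell death.

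RNA was sequenced from 1464R cells, a line of adult rat neural stem cells, after 4 days of differentiation with retinoic acid and a further 48 h in serum-free medium. In TDP-43 + EA + Eda, cells received adenovirus carrying human TDP-43 and edaravone, a free-radical scavenger, at 50 μmol/L at the change of medium, and then 20 μmol/L ethacrynic acid, which blocks glutathione S-transferases, for the last 24 h. In TDP-43 + EA they received the virus and ethacrynic acid without edaravone. Eda cells received edaravone alone at 50 μmol/L for 48 h, and the labels list no treatment for Control. The study's methods give DMSO the same final concentration in vehicle and edaravone treatments, and the labels do not say whether Control received it. The sample labels name a virus of the C-terminal fragment of TDP-43, and the study's methods name a second virus with the full-length protein. None of the 4 groups analysed here received the virus or ethacrynic acid alone, and no empty virus is named for them, so that virus and ethacrynic acid cannot be told apart in these data. The study's supplement describes cells with the virus or ethacrynic acid alone, which were not analysed here. Each of the 4 groups had 3 libraries, all from 1 cell line. The study describes its sequencing as done over separate experiments, and the labels do not say which library came from which, so that the spread behind each p-value is that between these libraries.

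Below, the TDP-43 + EA comparison sets TDP-43 + EA against Control, to show what virus and ethacrynic acid changed, and the edaravone comparison sets TDP-43 + EA + Eda against the TDP-43 + EA cells that had no edaravone.

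The libraries held 17418137 to 43905611 counts, and the deepest was replicate 1 of TDP-43 + EA + Eda. Counts assigned to Tardbp, the gene of TDP-43, which can include reads of the human transgene, were 3672, 2045 and 2000.5 CPM (counts scaled to a common library size) in TDP-43 + EA + Eda, 1796, 1245 and 1087 CPM in TDP-43 + EA, 34.5 to 38.7 CPM in Eda and 37.1 to 41.1 CPM in Control, as the labels imply. Tardbp did not overlap between the groups with and without edaravone among the infected cells, and it was highest in the library that also had the highest Hspa5; its part in the results below was not tested. The motor neuron markers Mnx1, Slc18a3 and Slc5a7 were at 0 in all 12 libraries. The 9 oligodendrocyte markers summed to 11951 to 15971 TPM (a length-corrected share of the library) in TDP-43 + EA + Eda, 14680 to 18689 TPM in TDP-43 + EA, 29003 to 33944 TPM in Eda and 31014 to 38951 TPM in Control, and 8 of them fell in the TDP-43 + EA comparison and 0 in the edaravone comparison. The astrocyte markers summed to 149.8 to 269 TPM in TDP-43 + EA + Eda, 287 to 410.5 TPM in TDP-43 + EA, 364 to 496 TPM in Eda and 294 to 422 TPM in Control. This sum did not overlap between the infected groups, and 1 of 3 markers tested fell in the edaravone comparison. The sum was that of Gfap and S100b, the other listed astrocyte markers being at 0.688 TPM or less. Gfap was at 38.7, 83.1 and 62.9 TPM in TDP-43 + EA + Eda and 248, 176 and 149 TPM in TDP-43 + EA, while S100b overlapped. The neuronal markers summed to 170.8 to 313 TPM in TDP-43 + EA + Eda, 224 to 321 TPM in TDP-43 + EA, 428 to 478 TPM in Eda and 403 to 471 TPM in Control. Of these Stmn2 was at 0, and Rbfox3, Snap25, Dcx and Elavl4 were at 1.26 TPM or less. The largest part of the sum was Tubb3, at 299 to 358 TPM in Control and 163 to 256 TPM in TDP-43 + EA. Syt1 and Gap43 were also lower in TDP-43 + EA than in Control. Map2 went the other way, at 30.7 to 33.9 TPM in TDP-43 + EA and 19.8 to 25.2 TPM in Control. The microglial markers summed to 7.31 to 12.2 TPM in TDP-43 + EA + Eda, 4.43 to 8.07 TPM in TDP-43 + EA, 2.04 to 3.78 TPM in Eda and 1.31 to 3.52 TPM in Control, with Cx3cr1 and Ptprc at 0 in all libraries. Nearly all of this sum was Cd68, and the other listed markers were at 0.329 TPM or less, so it is not a measure of microglia. In these bulk samples fewer cells of a type and less RNA per cell cannot be told apart, and the part of these markers in the results was not tested.

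A gene is said below to have risen or fallen where edgeR gave an adjusted p of at most 0.05, and the study's own fold minimum, a log2 fold change of 1 or more in size, is counted beside it. CPM values are scaled by TMM, which sets libraries against each other by the bulk of their genes. This scaling matters in TDP-43 + EA + Eda, whose TMM factors were 0.829 to 0.860 against 1.02 to 1.1 in the other libraries. With library totals alone the median log2 fold change of all tested genes in the edaravone comparison moved to -0.297, against -0.018 with TMM, and with log2(TPM + 1) it was -0.211. Against Control it was -0.395 with library totals and -0.331 with TPM, against -0.077 with TMM. Of the genes that passed in the edaravone comparison, 50.6% were higher with TMM, 15.3% with library totals and 16.9% with TPM. Fold changes are therefore relative to the bulk of genes. Relative to that median, 6 members lay above and 4 below in this comparison under each of 4 scalings. The scalings of counts move a gene and the median nearly alike, so their agreement here was fixed in advance and is no support.

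In the TDP-43 + EA comparison 3 of 10 members rose (Ero1a, P4hb and Hspa5) and 2 fell (Pdia6 and Xbp1), beside 19.6% of all tested genes that rose and 18.7% that fell. Only Ero1a also met the fold minimum, as did 7.49% of all genes upward and 4.32% downward. In the edaravone comparison 4 members rose (Herpud1, Hspa5, Hsp90b1 and Ero1a) and 2 fell (Pdia4 and Pdia6), beside 15.4% and 15% of all genes. None of the 10 met the fold minimum there, which 1.9% of all genes met upward and 3.95% downward. The members' median log2 fold change was 0.04 in the first comparison and 0.23 in the second, beside 0.002 and -0.018 over all tested genes. Both comparisons share the TDP-43 + EA libraries.

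In Eda cells no difference of the 10 genes from Control passed. In Eda against Control 0 members rose or fell, beside 0% of all tested genes upward and 0% downward. With edgeR, 0 members and 539 of all genes had an unadjusted p under 0.05, and DESeq2 called 5 genes higher and 3 lower among all genes. The members' log2 fold changes lay between -0.12 for P4hb and 0.15 for Xbp1, and the 95% interval reached -0.31 for P4hb and 0.41 for Xbp1 and Pdia4. In TDP-43 + EA + Eda against Control 6 members rose and 3 fell, all but Calr, beside 27.1% and 30.4% of all genes. Hspa5 and Ero1a also met the fold minimum, as did 12.6% of all genes upward, while 0 members met it downward, beside 11.2% of all genes. The difference between edaravone's effect with and without TDP-43 + EA was tested as an interaction, and it was positive for 3 members (Herpud1, Hspa5 and Hsp90b1) and negative for 0, beside 8.42% and 7.04% of all genes.

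**Figure D1:**
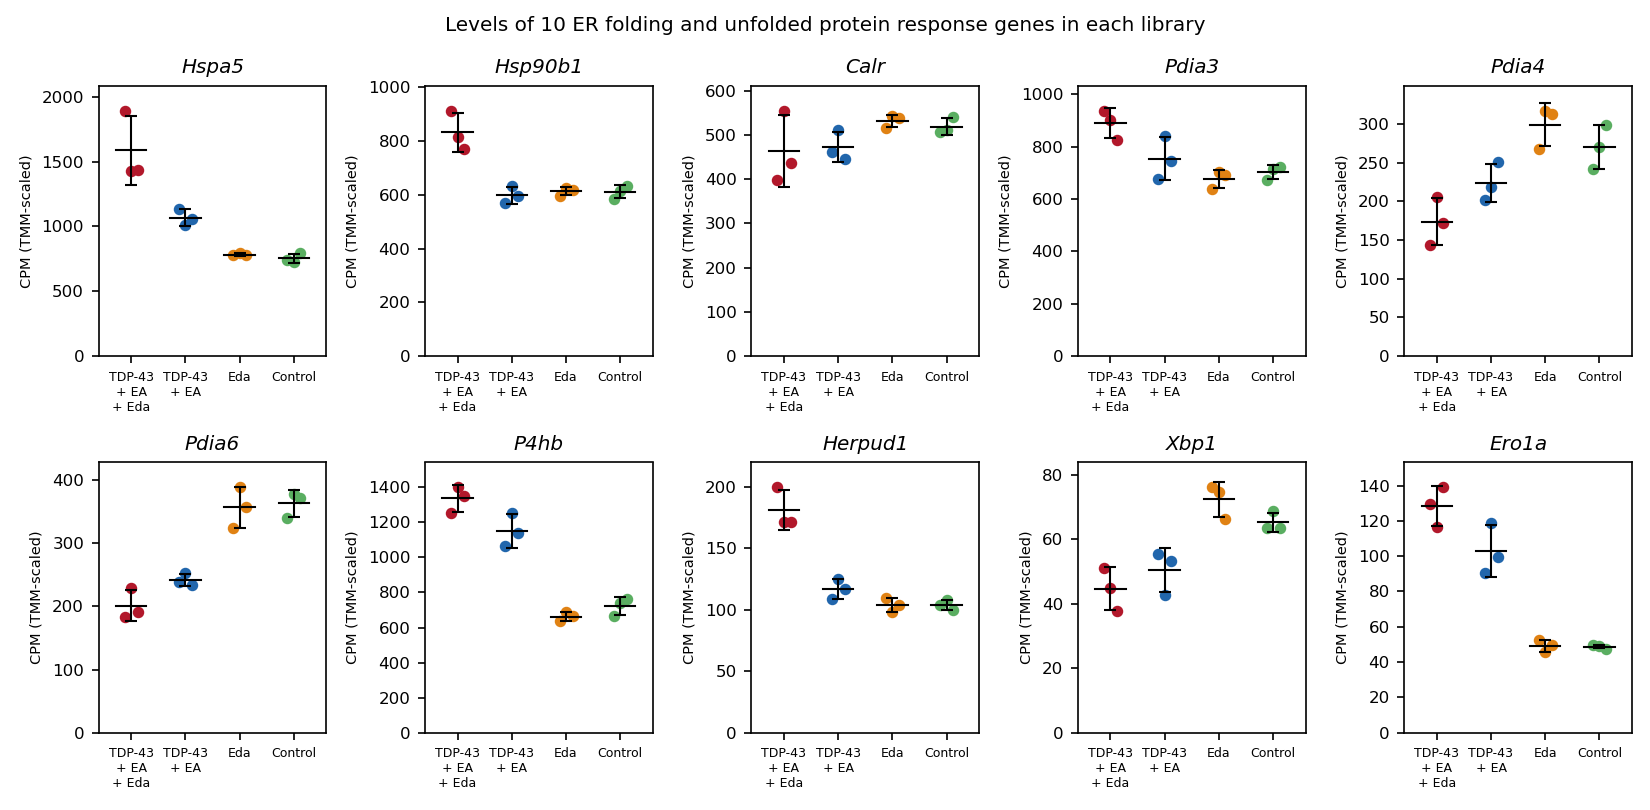
CPM (TMM-scaled, linear axis from 0) of each of the 10 members in TDP-43 + EA + Eda, TDP-43 + EA, Eda and Control; points are libraries, horizontal bars the mean and whiskers 1 SD (n = 3). Hspa5, Hsp90b1, Herpud1 and P4hb lie above their TDP-43 + EA levels in TDP-43 + EA + Eda, without overlap. Pdia6 lies lower in both infected groups than in Eda and Control, and Calr overlaps between the groups of each of the 4 comparisons made.

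Hspa5 encodes BiP, the ER member of the HSP70 family, which binds hydrophobic stretches of unfolded chains and holds the stress sensors inactive. The gene lies at chr3:13838304-13842762 on the plus strand of Rnor_6.0. It had 1892, 1429 and 1433 CPM in TDP-43 + EA + Eda, 1134, 1010.1 and 1061 CPM in TDP-43 + EA, 778, 793 and 776 CPM in Eda and 738, 728 and 792 CPM in Control. The infected cells lay above Control without overlap, and those with edaravone above those without it. Hspa5 rose by 0.50 in log2 fold change (SE 0.10, adjusted p = 0.0013) in the TDP-43 + EA comparison and by a further 0.57 (SE 0.10, adjusted p = 8.4e-04) in the edaravone comparison. TDP-43 + EA + Eda thereby stood 2.11-fold above Control (adjusted p = 5.6e-07), while Eda against Control was 0.06 (95% interval -0.16 to 0.27). The interaction was 0.51 (adjusted p = 0.027), a call lost in 11 of 20 alternatives: library totals, the 3 TPM settings, and the leaving out of replicate 1 or 3 of Control, any replicate of Eda, or replicate 2 or 3 of TDP-43 + EA. Without replicate 1 of TDP-43 + EA + Eda, the highest library, the edaravone difference was 0.42 and still passed.

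Hsp90b1 encodes GRP94, the ER member of the HSP90 family, which folds a narrower set of clients such as integrins and Toll-like receptors. It lies at chr7:27226569-27240533 on the minus strand of Rnor_6.0. Its CPM were 914, 815 and 771 in TDP-43 + EA + Eda, 568, 631 and 595 in TDP-43 + EA, 598, 626 and 619.7 in Eda and 586, 613 and 634 in Control. The TDP-43 + EA, Eda and Control libraries overlapped, and only the 3 with TDP-43 + EA and edaravone together stood above them. In the TDP-43 + EA comparison the log2 fold change was -0.03 (95% interval -0.20 to 0.14, adjusted p = 0.80). With edaravone Hsp90b1 rose by 0.48 over TDP-43 + EA (SE 0.08, adjusted p = 5.2e-04), and the interaction was 0.47 (adjusted p = 0.013), which did not pass with library totals or TPM. Against Control, TDP-43 + EA + Eda was higher by 0.45 (adjusted p = 2.3e-04), but with library totals and TPM this difference did not pass, and its lowest value was 0.06.

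Calr encodes calreticulin, the soluble lectin that binds glycoproteins bearing a single glucose and stores calcium. It lies at chr19:25956771-25961666 on the minus strand of Rnor_6.0. It had 398, 555 and 438 CPM in TDP-43 + EA + Eda, 461, 512 and 446 CPM in TDP-43 + EA, 515, 542 and 538 CPM in Eda and 506, 511 and 541 CPM in Control. In CPM it overlapped between the groups of all 4 comparisons, and it is the member that passed in none of them with TMM. In TPM both infected groups lay below Control, at 258 to 365 TPM in TDP-43 + EA + Eda, 353 to 401 TPM in TDP-43 + EA and 423 to 453 TPM in Control. In TDP-43 + EA + Eda against Control it passed downward in 5 of 21 alternatives, among them library totals and the TPM settings. In the edaravone comparison its log2 fold change was -0.03 (95% interval -0.25 to 0.19), and with library totals it was -0.30 and passed. Within TDP-43 + EA + Eda it varied most among the members, with a coefficient of variation of 17.6%, beside a median of 10.6% over the 10.

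The promoters of these 3 chaperones are shown because they hold the ER stress response element (ERSE), the site bound by cleaved ATF6 with NF-Y, which reads CCAAT and CCACG parted by 9 bases of any kind. The sequences are the 250 bases before the start of each gene in RefSeq on GRCr8, a later assembly than that of the counts, 5′ to 3′ on the strand of the gene. They lie at chr3:38452766-38453015 (plus strand) for Hspa5, chr7:23012294-23012543 (minus) for Hsp90b1 and chr19:40213117-40213366 (plus) for Calr. Capitals mark the fixed letters of an exact match on either strand, and a match on the other strand reads CGTGG first and ATTGG after it.
Hspa5: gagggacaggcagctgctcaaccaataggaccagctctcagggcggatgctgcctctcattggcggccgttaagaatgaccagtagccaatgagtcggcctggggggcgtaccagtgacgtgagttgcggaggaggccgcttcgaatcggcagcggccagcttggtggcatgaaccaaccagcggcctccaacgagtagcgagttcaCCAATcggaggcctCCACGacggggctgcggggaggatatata
Hsp90b1: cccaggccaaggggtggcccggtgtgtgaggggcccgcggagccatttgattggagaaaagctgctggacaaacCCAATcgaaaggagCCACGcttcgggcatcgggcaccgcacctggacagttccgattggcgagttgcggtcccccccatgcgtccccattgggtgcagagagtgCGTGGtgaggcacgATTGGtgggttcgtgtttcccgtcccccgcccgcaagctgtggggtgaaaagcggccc
Calr: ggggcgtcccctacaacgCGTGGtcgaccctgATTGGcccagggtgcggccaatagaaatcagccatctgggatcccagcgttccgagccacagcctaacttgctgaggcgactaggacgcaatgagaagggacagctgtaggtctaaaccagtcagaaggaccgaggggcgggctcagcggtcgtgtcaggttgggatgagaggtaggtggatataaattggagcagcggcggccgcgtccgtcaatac
Hspa5 holds a match from -43 to -25 relative to the start, Hsp90b1 holds matches from -176 to -158 and, on the other strand, from -72 to -54, and Calr holds 1 on the other strand from -232 to -214. The table held promoters for 7 of the 10 members, namely those 3 with Pdia4, P4hb, Herpud1 and Xbp1. In windows that run from 250 bases before to 50 after each start, an ERSE was found in 22 of 33469 promoters (0.0657%), 4 of them of members. The element was first described in promoters of such chaperones, so its presence there is background and not a finding. A match is a description and not a site in use: of the 3 chaperones that hold it, Hspa5 and Hsp90b1 rose with edaravone and Calr did not pass.

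**Figure D2:**
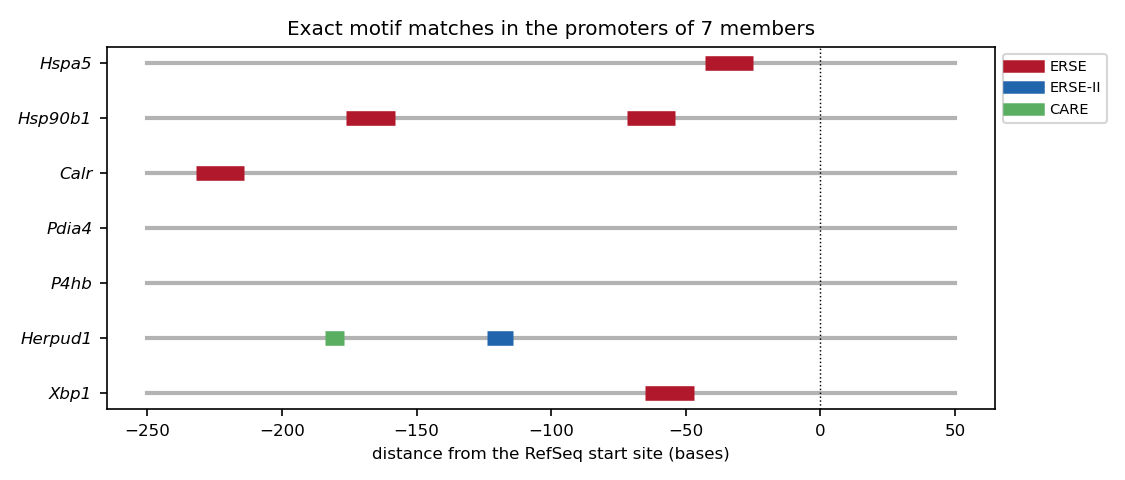
Exact matches of 3 motifs in the promoters of 7 members; the horizontal axis is the distance in bases from the RefSeq start site, each grey line is a window of 250 bases before to 50 after it, and coloured blocks are matches on either strand. ERSE matches stand in Hspa5, Hsp90b1, Calr and Xbp1, and Herpud1 alone holds ERSE-II and the CARE motif.

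The 4 disulfide isomerases, which share thioredoxin-like domains, did not move together. P4hb, the gene of the archetypal isomerase PDI that is also the beta subunit of collagen prolyl 4-hydroxylase, rose. It lies at chr10:109736458-109747987 on the minus strand of Rnor_6.0. Its CPM were 1255, 1401 and 1352 in TDP-43 + EA + Eda, 1063, 1252 and 1139 in TDP-43 + EA, 635, 689 and 665 in Eda and 664, 743 and 760.1 in Control. All 6 infected libraries lay above the 6 others. The log2 fold change in the TDP-43 + EA comparison was 0.67 (SE 0.09, adjusted p = 2.7e-05). In the edaravone comparison it was 0.21 (95% interval 0.03 to 0.40, adjusted p = 0.071), and the CPM of these groups did not overlap. This difference passed upward in 4 of 21 alternatives, among them a fit that includes the replicate number. With library totals, however, it was -0.06 and did not pass. In TPM the infected groups overlapped, at 582, 659 and 650 TPM in TDP-43 + EA + Eda and 596, 701 and 643 TPM in TDP-43 + EA.

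Pdia6, which encodes the isomerase P5 that works with BiP, moved the other way. It lies at chr6:42568220-42585652 on the plus strand. It had 183, 229 and 191 CPM in TDP-43 + EA + Eda, 238, 253 and 234 CPM in TDP-43 + EA, 324, 389 and 357 CPM in Eda and 339, 378 and 371 CPM in Control. The 3 levels of TDP-43 + EA + Eda, TDP-43 + EA and the uninfected groups did not overlap. Pdia6 fell by 0.59 (log2) in the TDP-43 + EA comparison (SE 0.10, adjusted p = 2.2e-04) and by 0.27 in the edaravone comparison (SE 0.10, adjusted p = 0.047). The second fall lay near the threshold and was lost in 12 of 21 alternatives, among them the leaving out of replicate 1 or 3 of TDP-43 + EA + Eda, replicate 3 of Eda, or any replicate of TDP-43 + EA or Control. With each library left out in turn the number of members lower in this comparison lay between 0 and 2. Reads of LOC685171, annotated as similar to Pdia6, were 0 in all libraries.

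Pdia4, which encodes the isomerase ERp72 and lies at chr4:77470636-77489535 on the minus strand, had 144, 205 and 172 CPM in TDP-43 + EA + Eda, 202, 218 and 251 CPM in TDP-43 + EA, 267, 317 and 313 CPM in Eda and 242, 270.1 and 299 CPM in Control. Its infected groups overlapped. The log2 fold change was -0.27 in the TDP-43 + EA comparison (adjusted p = 0.10). It fell in the edaravone comparison by 0.36 (SE 0.13, adjusted p = 0.041), a call that was lost in 10 of 21 alternatives, among them the leaving out of replicate 2 of Control, replicate 2 or 3 of Eda or of TDP-43 + EA, or replicate 1 or 3 of TDP-43 + EA + Eda. In TDP-43 + EA + Eda against Control it fell by 0.64 (adjusted p = 5.4e-04), without overlap.

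Pdia3 encodes ERp57, which forms disulfide bonds in glycoproteins held by calreticulin and calnexin. It lies at chr3:113376983-113400707 on the plus strand. It had 937, 902 and 826 CPM in TDP-43 + EA + Eda, 677, 841 and 744 CPM in TDP-43 + EA, 638, 703 and 693 CPM in Eda and 671, 714 and 724 CPM in Control. Its log2 fold change was 0.10 in the TDP-43 + EA comparison (adjusted p = 0.39) and 0.24 in the edaravone comparison (95% interval 0.05 to 0.43, adjusted p = 0.058), and the groups overlapped in both. The edaravone difference passed upward in 5 of 21 alternatives, among them a fit that includes the replicate number. With library totals, however, it was -0.04 and did not pass. In TPM Pdia3 was at 637, 623 and 583 TPM in TDP-43 + EA + Eda and 556, 695 and 623 TPM in TDP-43 + EA. In TDP-43 + EA + Eda against Control Pdia3 rose by 0.34 (adjusted p = 0.0045), but on log2(TPM + 1) that difference was -0.0239 and with library totals it did not pass.

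Ratios of counts within a library do not depend on scaling between libraries, and the ratio of Hspa5 to Pdia6 shows how far BiP and this isomerase parted; the pair was chosen after its values were seen, and no test was made. There were 10.3, 6.25 and 7.51 Hspa5 counts for each Pdia6 count in TDP-43 + EA + Eda, 4.77, 4.00 and 4.53 in TDP-43 + EA, 2.40, 2.04 and 2.17 in Eda and 2.18, 1.93 and 2.13 in Control. TDP-43 + EA + Eda lay above TDP-43 + EA, and TDP-43 + EA above the uninfected groups, without overlap.

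Ero1a encodes the oxidase that passes electrons from disulfide isomerases to oxygen and so recharges them, with hydrogen peroxide as its product. It lies at chr15:19619973-19655381 on the minus strand of Rnor_6.0. It had 129.7, 116 and 139 CPM in TDP-43 + EA + Eda, 90.2, 119 and 99.5 CPM in TDP-43 + EA, 52.4, 45.5 and 49.5 CPM in Eda and 49.6, 48.9 and 47.7 CPM in Control. All 6 infected libraries lay above the 6 others, while the infected groups overlapped each other. In the TDP-43 + EA comparison Ero1a rose 2.11-fold, a log2 fold change of 1.08 (SE 0.11, adjusted p = 2.4e-06), the largest of the 10. With edaravone it rose by 0.32 over TDP-43 + EA (SE 0.10, adjusted p = 0.030), a call that was lost in 9 of 21 alternatives: the value was 0.04 with library totals, and the call was also lost without replicate 1 or 3 of either group.

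**Figure D3:**
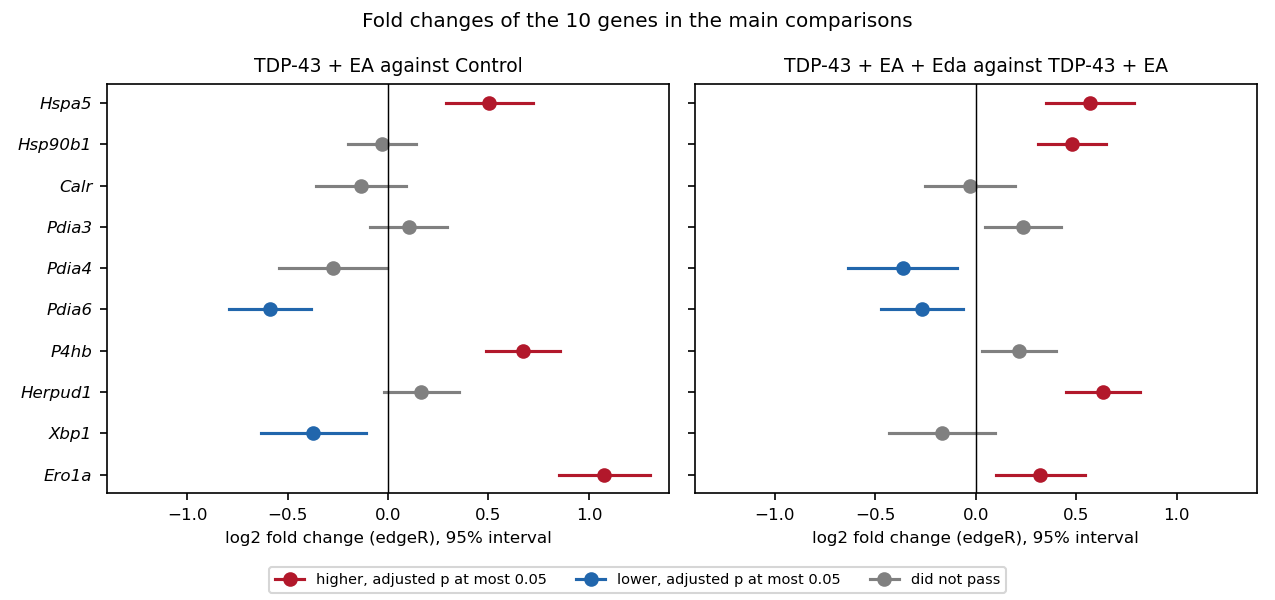
log2 fold changes of the 10 members with 95% intervals from edgeR, on the left for the TDP-43 + EA comparison and on the right for the edaravone comparison; red passed upward, blue downward, grey did not pass. Ero1a is farthest to the right in the first panel at 1.08 and Herpud1 in the second at 0.63.

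Herpud1 encodes HERP, an ER membrane protein with a ubiquitin-like domain that brings substrates to the HRD1 ubiquitin ligase, the main channel of ER-associated degradation. It lies at chr19:11046909-11057254 on the minus strand of Rnor_6.0. It had 199.7, 171 and 172 CPM in TDP-43 + EA + Eda, 109, 125 and 116 CPM in TDP-43 + EA, 109, 97.9 and 104 CPM in Eda and 104, 108 and 99.9 CPM in Control. The 3 libraries with TDP-43 + EA and edaravone stood above the 9 others. The log2 fold change in the TDP-43 + EA comparison was 0.17 (95% interval -0.02 to 0.35, adjusted p = 0.15). Herpud1 rose in the edaravone comparison by 0.63 (SE 0.09, adjusted p = 1.2e-04), the largest edaravone difference of the 10, and the interaction was 0.64 (SE 0.12, adjusted p = 0.0037), which did not pass with library totals or TPM. Relative to the median of all genes, the edaravone difference was 0.65 with TMM and with library totals. Both scalings move a gene and that median nearly alike, so this agreement is no support.

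The Herpud1 promoter is shown because, unlike the chaperones, it holds ERSE-II (ATTGG and CCACG parted by 1 base), the short element bound by XBP1 and ATF6, and a match to TTGCATCA, a form of the C/EBP-ATF response element (CARE) bound by ATF4 with C/EBP proteins. The 250 bases before the RefSeq start lie at chr19:10614708-10614957 on the minus strand of GRCr8, with the fixed letters of both matches in capitals.
Herpud1: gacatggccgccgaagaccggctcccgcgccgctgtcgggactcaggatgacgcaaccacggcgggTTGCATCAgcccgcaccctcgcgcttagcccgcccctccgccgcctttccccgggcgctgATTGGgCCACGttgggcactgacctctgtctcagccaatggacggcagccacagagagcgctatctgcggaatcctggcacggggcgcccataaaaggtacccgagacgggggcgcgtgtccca
The CARE match runs from -184 to -177 and ERSE-II from -124 to -114. Of 33469 promoters, 17 (0.0508%) held ERSE-II and 266 (0.795%) held this CARE form. The promoters of 7 members held no TGACGTGG, the unfolded protein response element, found in 199 promoters (0.595%), and no heat shock element (GAA, TTC and GAA, each parted by 2 bases), found in 267 (0.798%); both strands were searched for each.

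Xbp1, the transcription factor, was counted over all its RNA, so that spliced and unspliced forms cannot be told apart in these gene counts. It lies at chr14:85753760-85758145 on the plus strand of Rnor_6.0. It had 51.2, 45.0 and 37.8 CPM in TDP-43 + EA + Eda, 55.3, 42.6 and 53.1 CPM in TDP-43 + EA, 76.1, 74.7 and 66.2 CPM in Eda and 63.6, 68.7 and 63.4 CPM in Control. The infected groups lay below the uninfected ones without overlap, and overlapped each other. Xbp1 fell by 0.37 (log2) in the TDP-43 + EA comparison (SE 0.12, adjusted p = 0.025). That call was lost without replicate 2 of Control or of TDP-43 + EA, and the largest adjusted p over the alternatives was 0.12. In the edaravone comparison its log2 fold change was -0.17 (95% interval -0.43 to 0.09, adjusted p = 0.33). Its promoter, at chr14:84604373-84604622 on the plus strand of GRCr8, holds an ERSE from -65 to -47, in capitals, as those of the chaperones do; Hspa5 rose and Xbp1 fell in the TDP-43 + EA comparison.
Xbp1: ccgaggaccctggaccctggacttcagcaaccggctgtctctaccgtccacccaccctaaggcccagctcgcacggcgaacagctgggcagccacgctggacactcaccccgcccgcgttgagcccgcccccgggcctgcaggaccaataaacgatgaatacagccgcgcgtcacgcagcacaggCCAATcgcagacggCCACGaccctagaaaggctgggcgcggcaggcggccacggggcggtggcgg
Among the other genes with an ERSE in this window 12 were tested, of which 3 rose and 2 fell in the TDP-43 + EA comparison, and 3 rose and 1 fell in the edaravone comparison. Beside these stand 19.6% and 18.7% of all genes in the first comparison and 15.4% and 15% in the second. Dnajc3, a BiP co-chaperone, rose by 0.77 in the second comparison, and Creld2, an ER folding factor, fell by 0.53. Of 9 others with ERSE-II, 1 rose and 3 fell in the first comparison and 1 rose and 1 fell in the second.

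In levels per length, by the deposited TPM in Control, Pdia3 stood first with a mean of 625 TPM, followed by Hspa5 at 447, Calr at 438 and P4hb at 435 TPM, whose libraries overlapped between neighbours. Hsp90b1 at 337 and Pdia6 at 329 TPM overlapped as well. Pdia4 followed at 176, Xbp1 at 108, Herpud1 at 89.4 and Ero1a at 33.2 TPM, each apart from its neighbour. In TDP-43 + EA P4hb stood first by its mean, at 596, 701 and 643 TPM, but its libraries overlapped those of Pdia3, at 556, 695 and 623 TPM, and of Hspa5, at 624, 557 and 590 TPM. In TDP-43 + EA + Eda Hspa5 stood first by its mean at 860.1, 659 and 676 TPM, with its lowest library barely above the highest of P4hb, at 582, 659 and 650 TPM. Xbp1 stood last at 65.0, 57.9 and 50.0 TPM, overlapping Ero1a at 67.5, 61.5 and 75.0 TPM. Together the 10 genes took 0.301 to 0.318% of all TPM in TDP-43 + EA + Eda, 0.297 to 0.326% in TDP-43 + EA, 0.301 to 0.321% in Eda and 0.285 to 0.311% in Control, so that their share overlapped between groups. Their summed CPM, scaled by TMM and not corrected for length, did not overlap between the infected groups or between these and the others: it was 5532 to 6104 in TDP-43 + EA + Eda, 4598 to 5004 in TDP-43 + EA, 3994 to 4277 in Eda and 3964 to 4331 in Control. A lower TMM factor raises every CPM of a library, and the factors were 0.829 to 0.860 in TDP-43 + EA + Eda and 1.02 to 1.04 in TDP-43 + EA. The gap between the infected groups thus does not show a larger total apart from that scaling.

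**Figure D4:**
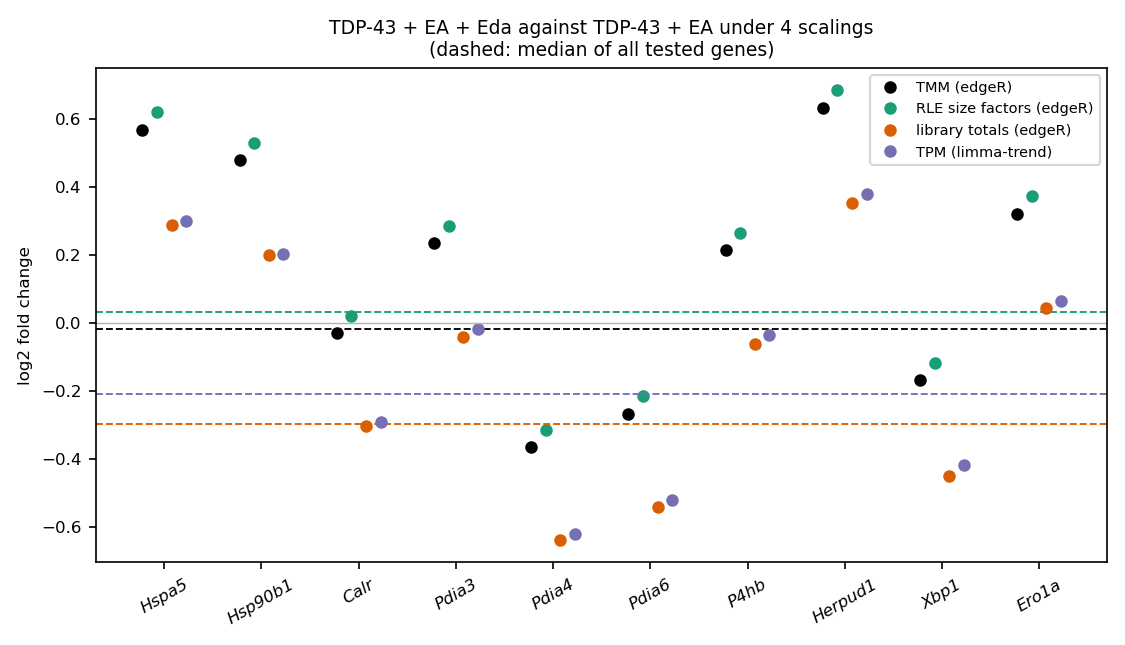
log2 fold change of each member in the edaravone comparison under TMM, RLE size factors and library totals in edgeR, and from deposited TPM in limma-trend; dashed lines are the median of all tested genes under the same scaling. Library totals and TPM lower all points and the median together. Hspa5, Hsp90b1, Herpud1 and Ero1a lie above 0 under all 4, Ero1a at 0.04 with library totals.

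The groups of the members did not overlap for 4 upward and 2 downward in the TDP-43 + EA comparison, beside 25.6% and 25.8% of all tested genes. For the edaravone comparison this held for 4 upward and 1 downward, beside 19.5% and 20.3%. In TDP-43 + EA + Eda against Control it held for 6 and 3, beside 28.9% and 32.9%, and in Eda against Control for 0 and 0, beside 5.5% and 7.06%.

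Of the 16 sensors and transcription factors of the unfolded protein response tested, 5 rose and 3 fell in the TDP-43 + EA comparison, beside 19.6% and 18.7% of all genes, with a median log2 fold change of 0.02. In the edaravone comparison 6 rose and 1 fell, beside 15.4% and 15% of all genes, with a median of 0.07. The same shares of all genes stand behind the counts of each list below. Ern1, the sensor IRE1, had 104, 77.6 and 114 CPM in TDP-43 + EA + Eda and 56.8, 55.7 and 38.0 CPM in TDP-43 + EA, against 59.4, 46.2 and 55.7 CPM in Control. It rose by 0.98 with edaravone (SE 0.16, adjusted p = 5.6e-04), without overlap. Eif2ak3, the sensor PERK, had a log2 fold change of -0.37 with edaravone (adjusted p = 0.069), and Atf6 of 0.13 (adjusted p = 0.61). Atf6b, its relative, fell by 0.53 in the TDP-43 + EA comparison (adjusted p = 8.5e-05), and so did Mbtps1, the site-1 protease that cuts ATF6, by 0.41 (adjusted p = 0.0010).

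Atf4, the transcription factor made downstream of PERK and other kinases, had 749.8, 711 and 673 CPM in TDP-43 + EA + Eda and 405, 402 and 359 CPM in TDP-43 + EA, against 367, 331 and 304 CPM in Control. It rose by 0.87 with edaravone (SE 0.10, adjusted p = 2.8e-05), and its log2 fold change in the TDP-43 + EA comparison was 0.22 (adjusted p = 0.087). Ddit3, the gene of CHOP, had 502, 363 and 400.3 CPM in TDP-43 + EA + Eda and 176, 177 and 172 CPM in TDP-43 + EA, against 140.2, 107 and 104 CPM in Control. It rose in both comparisons, by 0.58 in the TDP-43 + EA comparison (adjusted p = 0.0017) and by 1.27 with edaravone (SE 0.12, adjusted p = 1e-05), with no overlap in either.

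The gene lists were chosen with earlier results of these data known, so their order is a description and not a test. The genes downstream of PERK, ATF4 and CHOP rose with edaravone in the largest share of the 6 lists. Of 13 tested, 8 rose and 0 fell in the edaravone comparison, with a median of 0.87 beside -0.018 over all genes. In the TDP-43 + EA comparison 3 rose and 3 fell. Cebpb, a transcription factor that partners ATF4, had 988, 661 and 814 CPM in TDP-43 + EA + Eda and 247, 269.7 and 225 CPM in TDP-43 + EA, against 34.4, 30.3 and 30.6 CPM in Control, and rose by 2.96 and then by a further 1.73. Ppp1r15a, whose product GADD34 restores translation by reversing eIF2α phosphorylation, rose by 1.87 and then by 1.07. Chac1, which degrades glutathione, rose with edaravone by 1.12 (adjusted p = 1.2e-04), and Sesn2, a sestrin that restrains mTORC1, by 0.87 (adjusted p = 7.5e-05). For both, the groups of TDP-43 + EA and Control overlapped. Vldlr, a lipoprotein receptor, fell by 1.09 in the TDP-43 + EA comparison and rose by 0.43 with edaravone (adjusted p = 0.017), a rise lost in 8 of 21 alternatives, among them without replicate 1 or 3 of TDP-43 + EA or replicate 3 of TDP-43 + EA + Eda. Many of these genes also answer to stresses other than unfolded ER proteins.

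ER-associated degradation, the way by which Herpud1 acts, had 24 tested genes besides it. Of these 9 rose and 2 fell in the edaravone comparison, and 7 rose and 6 fell in the TDP-43 + EA comparison. The genes that rose with edaravone included those of the cytosolic extraction machine: Vcp, the p97 ATPase, by 0.51 (adjusted p = 1.3e-04) and its cofactor Nploc4 by 0.49 (adjusted p = 3.7e-04). Vcp had 1946, 1847 and 1821 CPM in TDP-43 + EA + Eda and 1310.5, 1374 and 1260.2 CPM in TDP-43 + EA, against 825, 823 and 809 CPM in Control. Ube2g2, a ubiquitin-conjugating enzyme of the pathway, rose by 1.08 in the TDP-43 + EA comparison (adjusted p = 2.1e-07) and by 0.76 with edaravone (adjusted p = 2.1e-05). Rnf5, a membrane ubiquitin ligase, fell by 0.57 in the TDP-43 + EA comparison (adjusted p = 1.9e-05). Syvn1, the gene of the HRD1 ligase itself, had a log2 fold change of -0.10 with edaravone (adjusted p = 0.49). The 2 genes that fell with edaravone were Erlec1, by 0.45, and Edem2, by 0.36.

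Among 24 other ER folding factors, 3 rose and 5 fell in the TDP-43 + EA comparison, and 5 rose and 6 fell with edaravone, with medians of -0.02 and -0.001. Those that rose with edaravone included the BiP co-chaperones Dnajc3, at 155, 159.7 and 164 CPM in TDP-43 + EA + Eda and 84.1, 102 and 93.0 CPM in TDP-43 + EA, and Dnajb9, by 0.64 (adjusted p = 0.011). The Dnajb9 groups overlapped, and the call was lost without replicate 1 of TDP-43 + EA + Eda and with library totals or TPM. Dnajb9 had risen by 1.43 in the TDP-43 + EA comparison (adjusted p = 1.8e-05). Erp44, which retains Ero1a protein in the early secretory pathway, rose by 0.47 with edaravone (adjusted p = 0.0012), a call lost with library totals and TPM, where its lowest value was 0.19. Crebrf, which stands in this list although it encodes a regulator of CREB3 and not a folding factor, rose by 1.15. Fkbp14, a prolyl isomerase that acts on collagen, fell by 0.70 and then by 0.58, and had 14.6, 14.6 and 16.7 CPM in TDP-43 + EA + Eda and 24.1, 20.1 and 24.4 CPM in TDP-43 + EA, against 39.0, 38.3 and 34.4 CPM in Control.

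The translocation and export genes, 29 tested, had 3 up and 6 down in the TDP-43 + EA comparison, beside 19.6% and 18.7% of all genes, and 2 up and 5 down with edaravone, beside 15.4% and 15%. The last count was 2 without replicate 1 of TDP-43 + EA or replicate 3 of TDP-43 + EA + Eda, 3 without replicate 1 of TDP-43 + EA + Eda or of Eda, and 8 without replicate 2 of TDP-43 + EA + Eda; the count of 6 was 3 without replicate 3 of either group. The signal peptidase subunits Spcs1 and Spcs2 fell by 0.39 and 0.37 in the TDP-43 + EA comparison (adjusted p = 0.0011 and 0.0033). With edaravone Sec63, which couples BiP to the translocon, rose by 0.53 (adjusted p = 0.0012, not passed with library totals) and Sec61b, a translocon subunit, fell by 0.43 (adjusted p = 0.0025). The KDEL receptors, which return BiP and its kin from the Golgi, differed: Kdelr1 fell in both comparisons, by 0.29 and 0.39, the first call being lost without replicate 2 or 3 of Control or of TDP-43 + EA, and Kdelr3 rose by 0.78 in the TDP-43 + EA comparison and fell by 0.37 with edaravone (adjusted p = 0.047), a fall lost in 14 of 21 alternatives. Among 15 calcium handling genes 2 rose and 2 fell in the first comparison and 3 rose and 2 fell in the second. Tmbim6, the gene of BAX inhibitor 1, rose by 0.62 and 0.53. With edaravone Stim2 rose by 0.55 while its partner sensor of ER calcium Stim1 fell by 0.72 (adjusted p = 0.0049). Itpr1, a calcium release channel, rose by 1.21 in the TDP-43 + EA comparison at low levels of 3.18 to 4.86 CPM in TDP-43 + EA, 3.42 to 4.55 CPM in Eda and 1.76 to 1.89 CPM in Control, and with TPM it did not pass, its lowest value being 0.31. Atp2a3, a calcium pump, had 1, 1 and 0 counts in TDP-43 + EA, against 42, 60 and 9 in Control.

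In the wider KEGG set of protein processing in the ER, added after the files had been seen and taken without the 10 members, 44 of 148 tested genes rose and 14 fell in the edaravone comparison, beside 15.4% and 15% of all genes, with a median of 0.12. In the TDP-43 + EA comparison 44 rose and 24 fell, beside 19.6% and 18.7%, with a median of 0.01. Cytosolic heat shock genes such as Hspa8, Hsph1 and Hsp90aa1 belong to this set and were among those that rose with edaravone. Genes of the lists above, such as Ddit3, Atf4 and Vcp, are counted in it again. These counts are therefore not for ER folding genes alone.

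**Figure D5:**
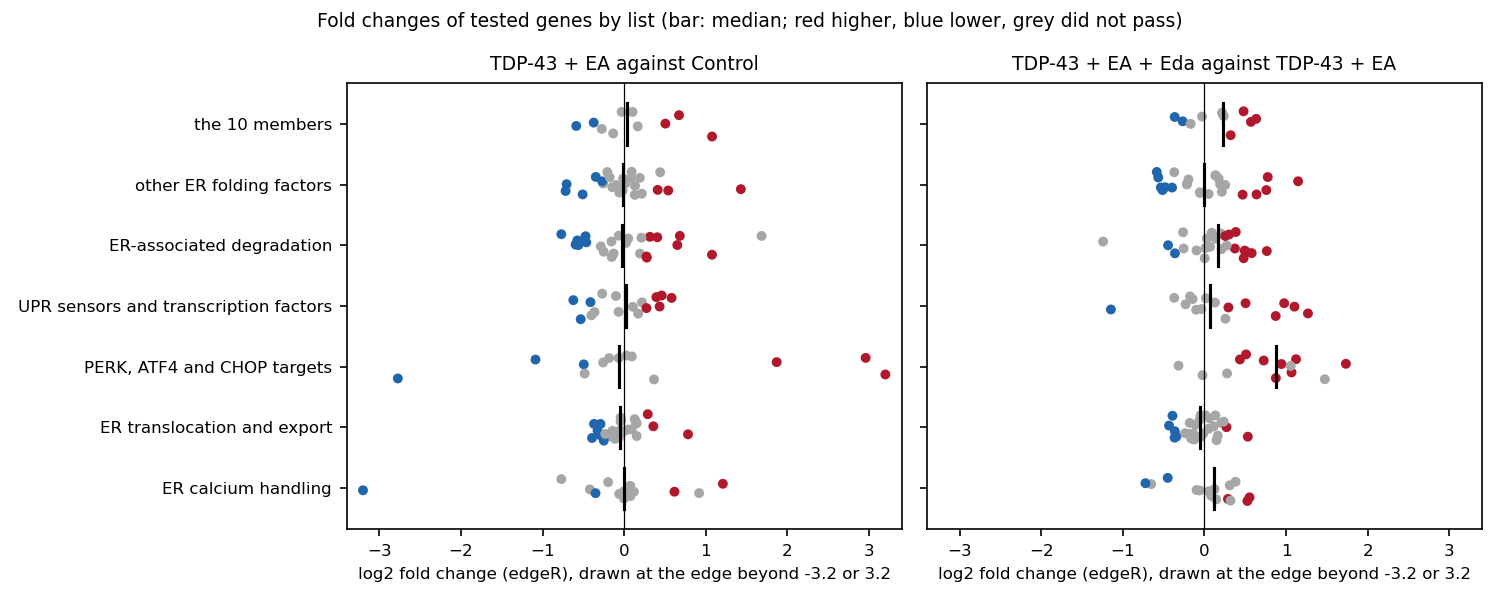
log2 fold changes of the 10 members and of the tested genes of 6 lists, on the left for the TDP-43 + EA comparison and on the right for the edaravone comparison; each point is a gene (red passed upward, blue downward, grey did not pass), black bars are medians, and values beyond 3.2 in either direction are drawn at the edge. The median of the PERK, ATF4 and CHOP targets stands at 0.87 on the right and at -0.07 on the left.

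The genes whose levels followed those of Hspa5 most closely over the 12 libraries were Smndc1, Cct3, Lmna, Hnrnpa3 and Tef. Likeness was the root mean square difference of log2 CPM, each gene taken less its Control mean, and it was 0.090 to 0.1 for these 5 out of 13229 other genes. For Herpud1 they were LOC361985, Rnf146, Cnot9, Fgfr1op2 and Amd1, at 0.063 to 0.089. All 10 neighbours rose in the edaravone comparison, by 0.46 to 0.64, as closeness to Hspa5 and Herpud1 requires.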

How the data were processed

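The members and gene lists were chosen with earlier results of these data known. Per the study's methods, the authors made libraries with SMART-Seq v4 and Nextera XT, which do not mark strand, and processed the reads with DRAGEN (Rnor_6.0, Ensembl annotation). The deposited gene values are expected counts, estimated by the authors and not normalized; they were rounded here. The deposited TPM were scaled by the authors to transcript length; 14.7 to 16.7% of genes per library lay within 10% of TPM recomputed from gene counts and lengths. How reads shared between genes were counted is not given in the sources used here.

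Tests used edgeR 4.0.16 in R 4.3.3 (filterByExpr, 13230 of 19455 genes with a count; TMM; robust quasi-likelihood fits over 12 libraries; Benjamini-Hochberg adjustment per comparison), a procedure tested on simulated data. The simulated data had the same spread for all genes and changes in few genes of TDP-43 + EA only. They do not cover a shift of scaling such as that of TDP-43 + EA + Eda. DESeq2 1.42.0 and limma-trend 3.58.1 were alternatives. Totals were 17418137 to 43905611 counts per library; no molecular identifiers are named, so intervals cover these libraries only. No pair of libraries within a group was a near copy (chi-square per gene 11.0 to 68.1), and pairs across groups were not compared in this way. Of 177 listed symbols, 172 matched by symbol, 2 by Entrez number and 3 did not. Named genes are the members, the 3 genes of each ER list with the smallest adjusted p in each main comparison, Ern1, Eif2ak3, Atf6, Atf4, Ddit3, the 5 genes nearest to Hspa5 and to Herpud1, and Tardbp. Creld2, Syvn1, Erlec1, Edem2, Hspa8, Hsph1, Hsp90aa1, the marker genes and LOC685171 were named after their values were seen. Promoters are from RefSeq (GRCr8). Plots were drawn in matplotlib.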

Additional observations from a re-analysis of the deposited data

Results flagged for a closer look

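For 3 members edaravone's effect differed between cells with TDP-43 + EA and cells without it, by a test of the interaction in edgeR. The difference between the log2 fold changes was 0.6371 for Herpud1 (adjusted p = 0.0037), 0.5135 for Hspa5 (adjusted p = 0.027) and 0.4704 for Hsp90b1 (adjusted p = 0.013), so that edaravone's effect was higher in cells with TDP-43 + EA. All 3 libraries of TDP-43 + EA + Eda lay above all 3 of TDP-43 + EA for each of these genes, while Eda and Control overlapped. With library totals or TPM in place of TMM none of the 3 passed, and Hspa5 was also lost on leaving out any of 7 single libraries.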

How the results depend on the processing

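Over all members and comparisons, 935 values kept their side of the threshold under an alternative, 45 newly passed and 57 no longer passed. Another 3 reversed, that is, they changed direction where the main test or the alternative passed. Changes of direction where neither passed are counted among the 935. P4hb in the edaravone comparison, at -0.06 with library totals, is an example. In the edaravone comparison Hspa5 (0.288 to 0.640), Hsp90b1 (0.200 to 0.531) and Herpud1 (0.354 to 0.685) passed in all 21 alternatives, as did Hspa5, P4hb, Ero1a and Pdia6 in the TDP-43 + EA comparison. Members lower in the edaravone comparison, 2 with TMM, numbered 0 with RLE size factors, DESeq2 or the 2 groups alone, and 4 with library totals, log2(TPM + 1) or log2(TPM + 0.1). For the interaction, members higher, 3 with TMM, numbered 0 with library totals and all TPM settings and 5 with DESeq2, and members lower, 0 with TMM, numbered 3 with library totals and TPM and 1 with every gene with a count. Leaving out each replicate gave 3 higher and 1 to 2 lower in the TDP-43 + EA comparison, 3 to 6 higher and 0 to 2 lower in the edaravone comparison, 6 higher and 3 to 4 lower in TDP-43 + EA + Eda against Control, 2 to 4 higher and 0 to 1 lower for the interaction, and 0 in Eda against Control. Pdia3 in TDP-43 + EA + Eda against Control reversed to -0.0239 (log2(TPM + 1), with or without the filter) and -0.024 (log2(TPM + 0.1)), and Rnf5 in the edaravone comparison to -0.2101 (library totals) and -0.1519 (log2(TPM + 1), every gene). With edaravone the lists' lower counts ranged most: 2 to 19 for translocation and export (5 with TMM), 5 to 13 for other folding factors (6), 1 to 8 for degradation (2), 0 to 6 for sensors and factors (1), 2 to 5 for calcium (2), while PERK, ATF4 and CHOP targets had 6 to 9 higher (8) and 0 lower throughout; degradation had 3 to 9 higher (9), other folding factors 3 to 7 (5) and translocation 0 to 4 (2). In the TDP-43 + EA comparison lower counts reached 12 for translocation (6), 8 for other folding factors (5, and 3 without replicate 3 of Control or replicate 1 of TDP-43 + EA) and 5 for sensors (3), and higher counts fell to 4 for degradation (7), 3 for sensors (5), and 1 for translocation (3) and for calcium (2), while lower calcium counts lay between 1 and 3 (2). The share of higher calls was 51.2% with TMM and 38.4% with TPM in the TDP-43 + EA comparison, 47.1%, 28% (library totals) and 26% (TPM) in TDP-43 + EA + Eda against Control, and 54.5%, 11.4%, 12.7% and, with RLE, 63.5% for the interaction. Apart from the scalings' own shift of all genes, the cause of these changes was not tested.

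Same-numbered libraries deviated together only weakly (correlations 0.027 to 0.134 over genes, not above 0.1 in every pair), but each library correlated best with its own number. The labels do not say whether a number marks an experiment. Leaving the numbers out of the main tests was therefore a choice, and a fit with a replicate block gives the other reading. With the replicate block 1 member was lower for the interaction (0 without it), since Pdia4 newly passed there. P4hb and Pdia3 newly passed upward in the edaravone comparison (adjusted p = 0.011 and 0.023), P4hb for the interaction, and Pdia4 downward in the TDP-43 + EA comparison (adjusted p = 0.016). Among the other genes named, Atf4 and Nploc4 (higher) and Atf6 (lower) newly passed in the TDP-43 + EA comparison and Eif2ak3 (lower) in the edaravone comparison. With the block 2777 genes rose in the TDP-43 + EA comparison, against 2592 without it. With 3 libraries a group, small changes and changes of genes such as Atp2a3, with few counts, stay imprecise.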
